A study of Mus musculus and Homo sapiens with 17 samples.

Results

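A431 is an established line of human epidermoid (squamous) carcinoma cells of the skin, known for its many copies of the EGFR gene. RNA of A431 cells with a CRISPR guide RNA against DUSP1, in 3 libraries, was compared with RNA of A431 cells with a guide RNA named Tomato, the control, in 3 libraries. The series holds 17 libraries, and the others came from mouse skin and skin tumours. In both groups 100000 cells were placed intradermally in host mice, the tumours were left to grow for 3 weeks, and the carcinoma cells were isolated with a kit that depletes mouse cells. The compared items were all named genes of the A431 count table: 58735 of 58958 features carried a name, and 18090 of these passed a filter on low counts and were tested. The labels call the cells with the DUSP1 guide knockout cells, but do not say whether they are 1 clone or a pool of edited cells. Nor do they say whether the libraries of a group came from separate tumours, so p-values measure only the spread among the libraries at hand, which may be technical. The names of the 3 count columns with the DUSP1 guide all hold CL2, which the labels do not explain, and those of the controls do not. Whether the cells of the groups differed in other ways than DUSP1 before they were placed in mice was not tested. The sources used here do not give the sex, strain or age of the host mice.

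DUSP1 is a dual-specificity phosphatase of the nucleus that removes phosphate from activated MAP kinases of the p38, JNK and ERK families and thereby switches them off. It is also an immediate early gene, switched on within minutes by the same kinases, so that it closes a feedback loop. In keratinocytes, MAP kinases act downstream of EGFR and of stress and cytokine receptors, and they drive AP-1 transcription factors, inflammatory mediators and programmes of growth and differentiation. Transcript counts do not measure the phosphorylation or the activity of a kinase.

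The libraries held 41.2 to 53.5 M counts (M is 1e6), and a gene with 0 counts in a library may have lain at up to 0.0568 to 0.0728 counts per 1e6 counts (CPM), which is 3 counts and covers counting error only. Across genes, Pearson's r of log2 CPM was 0.990 to 0.993 within groups and 0.974 to 0.979 between them. Replicate 1 of the DUSP1 guide stood apart from the other 2: counts differed with a chi-square per degree of freedom of 13.8 and 12.4 there, against 5.18 between replicates 2 and 3 and 3.51 to 7.07 among the controls, where 1 would be sampling noise alone. A level given below as 1 value is the mean of the 3 libraries of a group. For the tested genes named here, the SD among these 3 libraries was in the median 4.02% of their mean. It was at most 10% of the mean for 474 of 548 group means. The cells carried the markers of a squamous epithelium: KRT5, a basal keratin, was at 18302 CPM in the control and 17757 CPM with the DUSP1 guide, and KRT14, its partner, at 24033 and 25046 CPM. Several defining markers of other cell types were near 0, while others were detected, as given further on. PTPRC, the pan-leukocyte antigen, had 0 to 2 counts in a library, PECAM1 of endothelium 0 to 5 counts, and COL1A2 of fibroblasts 0 counts in 5 libraries and 1 in the other.

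The targeted transcript was examined first. The control libraries held DUSP1 at 471, 467 and 485 CPM and those with the DUSP1 guide at 73.6, 71 and 77.1 CPM. The groups did not overlap and each varied little. The transcript was 6.42-fold lower (log2 fold change -2.68 ± 0.05 (SE), n = 3 per group, adjusted p = 4.89e-17). It was not absent: the libraries with the DUSP1 guide held 3454, 2938 and 3252 DUSP1 counts. Counts per gene cannot tell which exons were read, nor whether the remaining transcript encodes an intact protein.

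**Figure D1:**
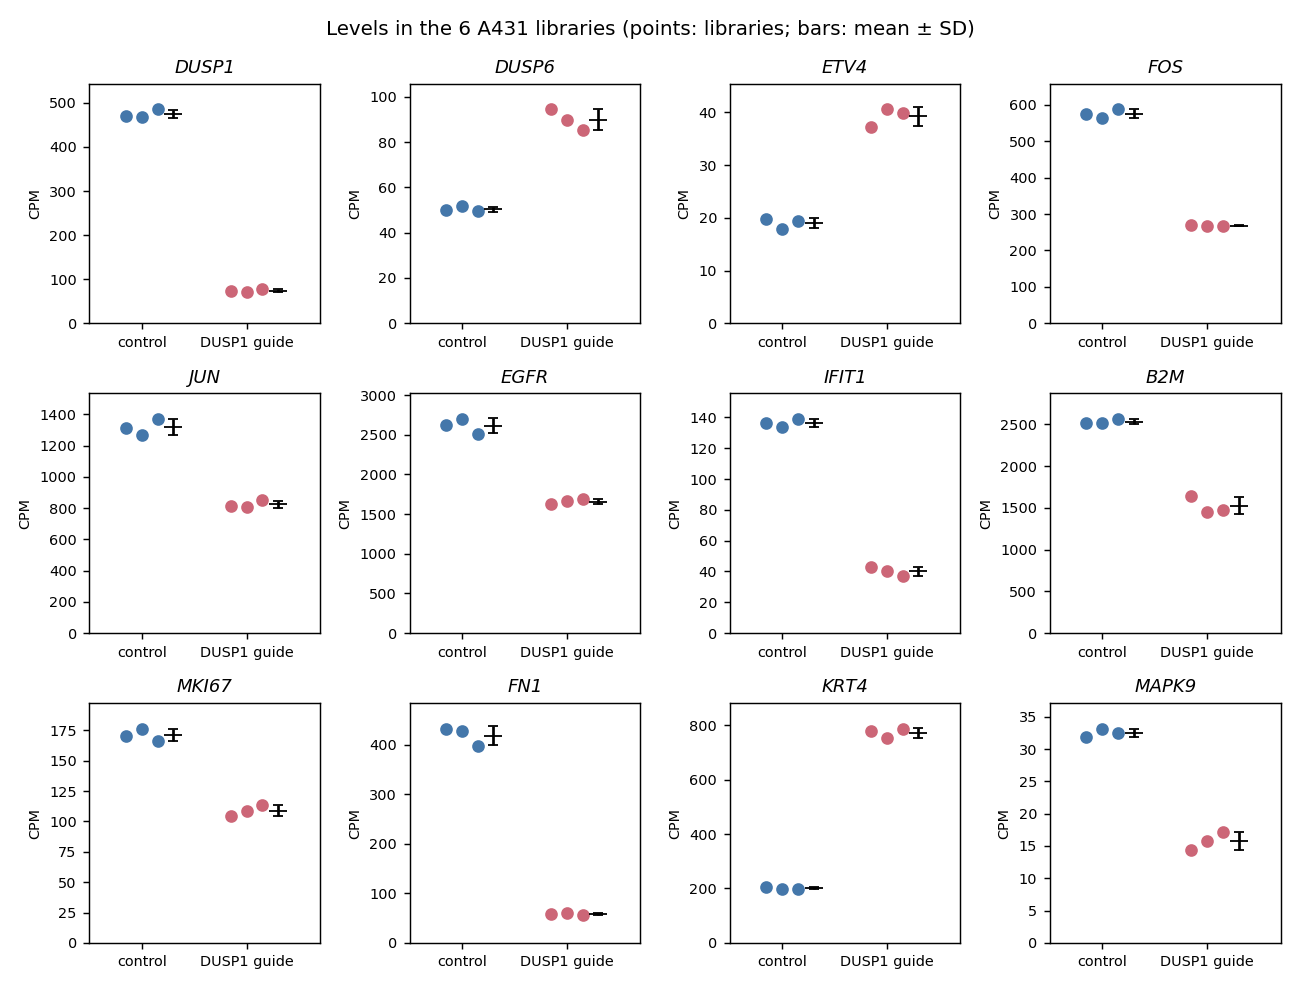
Levels of 12 genes in CPM (y axis from 0) in the 3 control libraries (blue) and the 3 libraries with the DUSP1 guide (red), with bars for the mean ± SD. In all 12 genes the groups do not overlap, as in 55.0% of all tested genes. DUSP1 is at 475 CPM in the control and 73.9 CPM with the DUSP1 guide, and KRT4 at 201 and 772 CPM.

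The difference between the groups reached far beyond DUSP1. At an adjusted p under 0.05, 8617 of 18090 genes (47.6%) were called, 4178 higher (23.1%) and 4439 lower (24.5%) with the DUSP1 guide. Most of these changes were small: 82.9% of the called genes differed by less than 2-fold, and the median size was 0.41 on the log2 scale. At least 2-fold changes were called in 1475 genes (8.15%), with 1099 higher (6.08%) and 376 lower (2.08%). The share called grew with the level, from 26.3% of genes under an average log2 CPM of 1 to 49.9% between 1 and 4, 60.2% between 4 and 7, and 66.4% above 7. Well expressed genes were called lower more often than higher: 38.0% lower and 22.2% higher between 4 and 7, and 43.1% lower and 23.4% higher above 7. Members of the gene lists below are mostly well expressed, so their counts are read against these shares, and a list with about 4 in 10 members lower lies near them. Genes of low level went the other way: under an average log2 CPM of 1, 20.4% were called higher and 5.9% lower. Higher calls also outnumbered lower ones between 1 and 4. Gains at low levels, given below for single genes and short lists, are read against this excess of higher calls. The median log2 fold change of all tested genes was 0.01. In 55.0% of all tested genes the 2 groups did not overlap. Groups without overlap, given below for single genes, are read against this share.

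**Figure D2:**
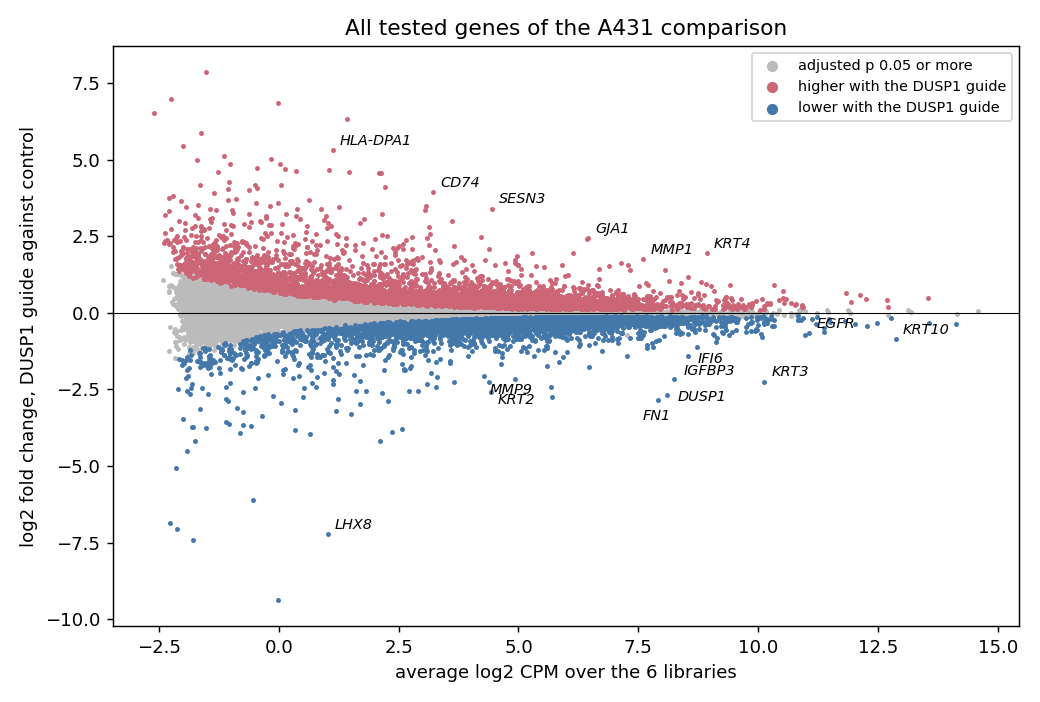
Log2 fold change with the DUSP1 guide against control (y axis) by average log2 CPM over the 6 libraries (x axis) for the 18090 tested genes, with genes called higher in red, lower in blue and others in grey. Called genes lie on both sides at every level, and DUSP1, FN1, KRT2 and KRT3 stand out as lower among well expressed genes.

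Fold changes were also examined by the order of genes in the genome. No human positions were at hand, so genes were laid out in the order of the mouse genes of the same symbol (RefSeq, GRCm38.p6), which keeps many human neighbours together. Of the tested genes 12059 (66.7%) had such a match, 10285 of them at an average log2 CPM of at least 1, and the median log2 fold change was taken over windows of 31 genes. Over 9685 windows these medians had a middle value of -0.09, with the 1st percentile at -0.32 and the 99th at 0.49. The windows described are the extremes of this range, so the direction of their members follows from the choice, and their counts are a description. Outside the 12 windows, 24.2% of tested genes were called lower and 22.6% higher. In the lowest window, mouse chromosome 11 from 48.8 to 53.2 Mb, the median was -0.69 and 30 of 31 genes were called lower. It held MAPK9, which encodes the kinase JNK2, CANX (calnexin, a chaperone of the endoplasmic reticulum), RACK1 (a ribosome-bound scaffold), MAML1 (a co-activator of Notch) and SQSTM1 (the autophagy receptor p62).

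The second lowest window, on mouse chromosome 13 from 52.8 to 55.6 Mb, had a median of -0.58, with 28 of 31 genes called lower and 2 higher. Its genes include CLTB, a clathrin light chain, which was at 269, 259.9 and 302 CPM in the control and 142, 132 and 132 CPM with the DUSP1 guide. NSD1, a histone methyltransferase, had a log2 fold change of -0.82 and DDX41, an RNA helicase, of -0.67. Human MAPK9, CANX, RACK1, NSD1 and DDX41 are known to lie near the same end of the same chromosome arm as DUSP1. In the mouse order the nearest gene on either side of Dusp1 was lower: NEURL1B, an E3 ubiquitin ligase, fell from 22.1 to 8.35 CPM on 1 side and ERGIC1 from 82.2 to 54.4 CPM on the other. The next gene beyond NEURL1B, LUC7L, rose from 38.7 to 47.5 CPM, and the next beyond ERGIC1, CREBRF, fell from 11.2 to 6.39 CPM. The order of mouse genes does not give the place of the human genes.

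Windows with high medians lay on mouse chromosomes 9, 11 and 6. On chromosome 9 from 108.6 to 110.5 Mb the median was 0.56 and 30 of 31 genes were called higher. COL7A1, the anchoring fibril collagen of skin, rose there from 1109 to 1819 CPM and UCN2, the hormone urocortin, from 16.1 to 47.7 CPM. A window on chromosome 11 from 68.0 to 69.8 Mb, with a median of 0.56 and 27 genes higher, held AURKB (a kinase of mitosis), SOX15 (a transcription factor of squamous cells) and the lipoxygenases ALOX12B and ALOXE3. The window beside it, from 71.0 to 75.2 Mb, had a median of 0.54 and 26 genes higher. On chromosome 9 from 104.3 to 107.5 Mb the median was 0.52, with DUSP7, MAPKAPK3 and MANF among the 24 genes higher. The counts do not measure DNA, and the copy number of these genes was not tested. Leaving out the 372 genes of the 6 lowest and 6 highest windows moved 2 of the list counts given below by over 1.5 times: chaperones of the endoplasmic reticulum called higher went from 8 to 5, and mitosis genes called higher from 1 to 0.

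**Figure D3:**
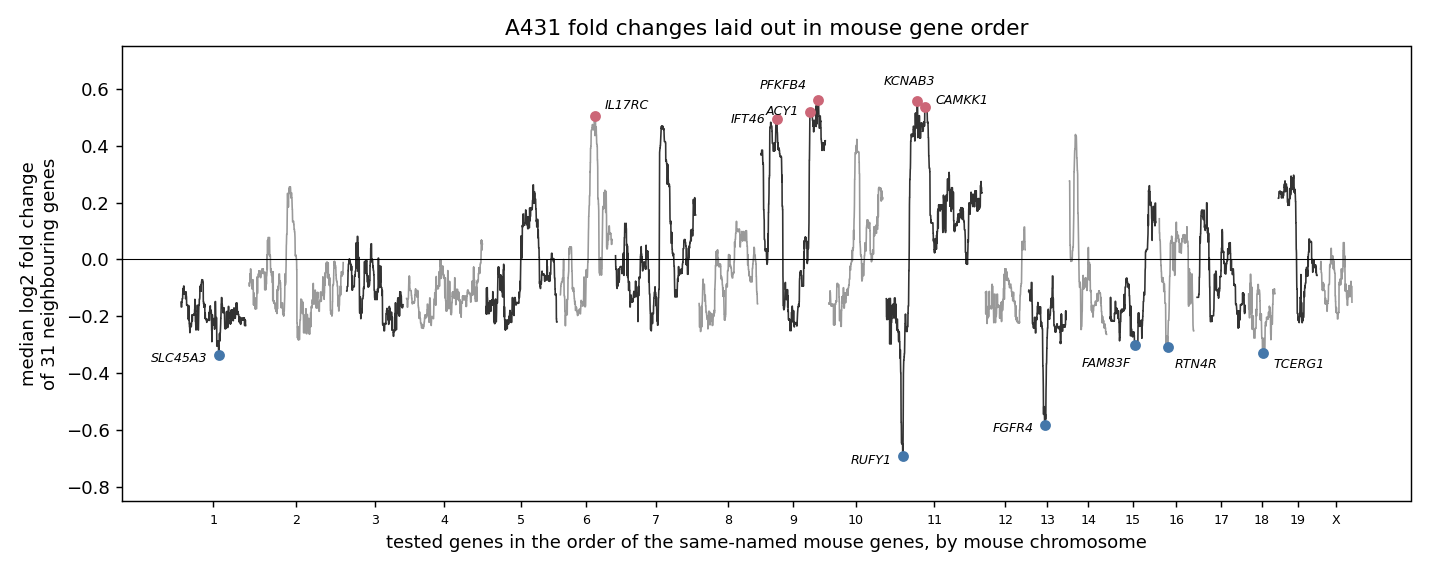
Median log2 fold change with the DUSP1 guide against control over windows of 31 neighbouring genes (y axis), for genes laid out in the order of the same-named mouse genes, by mouse chromosome (x axis, alternating shades). The 6 lowest (blue) and 6 highest (red) windows without overlap are marked by the gene at their centre, from -0.69 around RUFY1 to 0.56 around PFKFB4.

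Among the other MAP kinase phosphatases, losses and gains were mixed. Of 10 tested DUSP genes of this family, DUSP1 included, 5 were called higher and 3 lower, with a median log2 fold change of 0.09. DUSP6, the cytoplasmic phosphatase of ERK and itself induced by ERK, was at 50.1, 51.7 and 49.4 CPM in the control and 94.5, 89.9 and 85.6 CPM with the DUSP1 guide. All 3 libraries with the DUSP1 guide lay above all controls, a 1.79-fold difference (log2 fold change 0.84 ± 0.05, adjusted p = 7.25e-10). DUSP7 and DUSP9, the other cytoplasmic ERK phosphatases, were 1.52-fold and 2.27-fold higher, DUSP9 at 3.92 against 8.91 CPM. The nuclear phosphatases DUSP4 (log2 fold change -0.56) and DUSP5 (-0.44) were lower.

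DUSP2, a nuclear phosphatase at 18.2 and 21.2 CPM, and DUSP8, a phosphatase of JNK and p38 at 1.08 and 1.59 CPM, passed narrowly, and DUSP8 lost its call under 10 of 11 alternatives. The count of higher genes was 3 in place of 5 without control replicate 1, without DUSP1-guide replicate 1 or with no filter, since both then lost their call. DUSP10 and DUSP16, which act on JNK and p38, did not pass, with log2 fold changes of -0.10 and -0.04. Summed over the family, the level was 745 to 759 CPM in the control libraries and 436 to 438 CPM in those with the DUSP1 guide. DUSP1 itself made up this drop: without it, the sum of the other 9 was 273 to 277 CPM in the control and 359 to 367 CPM with the DUSP1 guide. DUSP7 lies in one of the high windows of mouse order.

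The MAP kinases themselves differed most in MAPK9 and MAPK7. Of 10 tested, 4 were lower and 2 higher, with a median log2 fold change of -0.07. MAPK9 was at 31.8, 33.1 and 32.6 CPM in the control and 14.4, 15.8 and 17.1 CPM with the DUSP1 guide, 2.06-fold lower without overlap (log2 fold change -1.04 ± 0.07, adjusted p = 1.73e-09), and it lies in the lowest window of mouse order. The p38 genes MAPK14 (-0.22) and MAPK13 (-0.20) were slightly lower on the log2 scale. MAPK7, which encodes ERK5, rose from 11.6 to 19.8 CPM. MAPK10 (JNK3), at 3.46 and 4.57 CPM, passed only narrowly and lost its call without control replicate 2 or 3. MAPK3 (ERK1, log2 fold change -0.09), MAPK8 (JNK1, 0.02), MAPK12 (-0.05) and MAPK11 (0.02) did not pass.

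Of 26 tested kinases upstream or downstream of the MAP kinases, 11 were lower and 7 higher. RPS6KA2, a ribosomal S6 kinase activated by ERK, was 2.37-fold lower, and MKNK2, a kinase of the translation factor eIF4E, fell from 430.4 to 311 CPM. MAP2K3, which activates p38, rose from 30.9 to 49.7 CPM and MAPKAPK3, a target of p38, from 36.1 to 60.6 CPM.

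ERK feedback genes, which ERK signalling is known to induce, were split. Of 14 tested, 5 were higher and 5 lower (3 without control replicate 2), with a median log2 fold change of 0.08. The largest gains were in the ETS factors ETV4 and ETV5. ETV4 was at 19.8, 17.9 and 19.3 CPM in the control and 37.3, 40.6 and 39.9 CPM with the DUSP1 guide, 2.07-fold higher (log2 fold change 1.05 ± 0.06, adjusted p = 4.56e-10), and ETV5 rose from 5.78 to 12.2 CPM. In both genes every library with the DUSP1 guide was above every control. PHLDA1, a pleckstrin-homology protein, was 1.44-fold and SPRED2, an inhibitor of RAF activation, 1.25-fold higher. CCND1 (cyclin D1) had a log2 fold change of -0.18, SPRY4, a Sprouty inhibitor, of -0.19, and EPHA4, a receptor of ephrins, of -0.41, all lower, although SPRY4 lost its call without control replicate 2 or DUSP1-guide replicate 1. EPHA2 did not pass (0.02).

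AP-1 subunits were mostly lower. AP-1 is a dimer of FOS, JUN, ATF or MAF proteins whose genes answer quickly to MAP kinases. Of 13 tested subunits 8 were lower and 2 higher, with a median log2 fold change of -0.50. The counts were the same without DUSP1-guide replicate 1, and no subunit lay in the 12 windows. FOS was at 576, 564 and 588 CPM in the control and 269, 268 and 267 CPM with the DUSP1 guide, 2.15-fold lower (log2 fold change -1.10 ± 0.04, adjusted p = 9.03e-13). JUN, the most abundant subunit, was at 1315, 1268 and 1369 and 816, 808 and 850.5 CPM, 1.6-fold lower. The 2 groups did not overlap for either gene.

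FOSB fell from 205 to 116 CPM, FOSL2 from 231 to 132 CPM and ATF3, a stress-induced subunit, from 129 to 72.9 CPM. JUNB (log2 fold change -0.50) and JUND (-0.46) were lower as well. The exceptions were FOSL1, which encodes FRA1 and rose from 68.8 to 116 CPM, and the low BATF2, at 1.06 and 2.17 CPM. MAFG and ATF2 did not pass, each with a log2 fold change of -0.04. Summed over the subunits, the level was 3007 to 3184 CPM in the control and 1941 to 1994 CPM with the DUSP1 guide.

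Immediate early genes outside AP-1 were mostly lower too, with 14 of 21 lower and 3 higher and a median log2 fold change of -0.38. EGR1, a zinc-finger factor induced through ERK, was at 394, 390.5 and 384 CPM in the control and 240.1, 267 and 263 CPM with the DUSP1 guide (log2 fold change -0.60 ± 0.05, adjusted p = 1.43e-08). BTG2, an antiproliferative gene, fell from 304 to 161 CPM, IER5 from 241 to 137 CPM and KLF6, a Krüppel-like factor, from 176 to 112 CPM. None of these groups overlapped. The 3 higher genes were EGR3, at 25.8 and 40.4 CPM, EGR2 and EGR4, the last of which had a level of 0.95 and 1.72 CPM. IER3 and MYC did not pass, with log2 fold changes of -0.07 and -0.01. Without DUSP1-guide replicate 1 the count was 14 lower and 2 higher, since EGR2 lost its call.

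**Figure D4:**
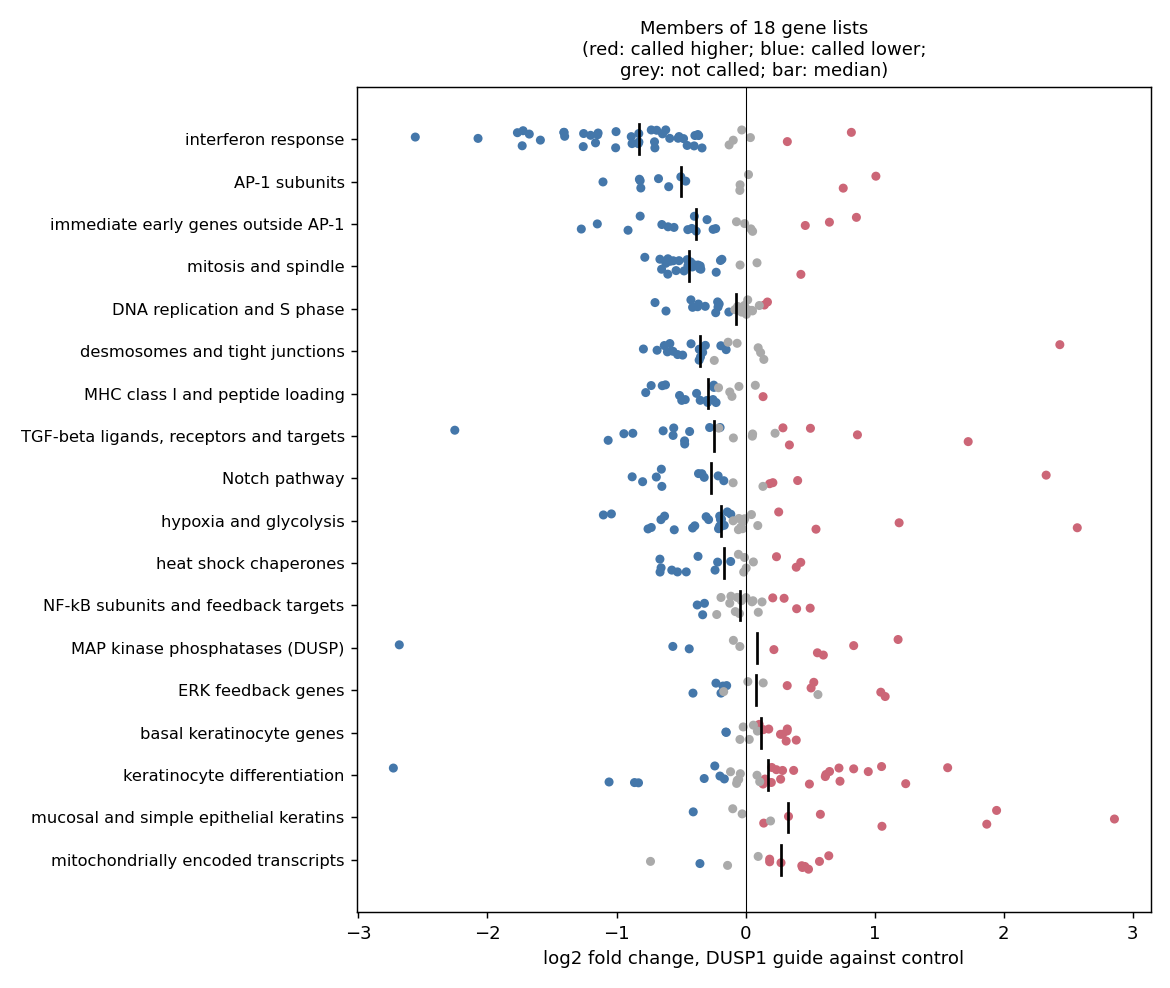
Log2 fold change with the DUSP1 guide against control (x axis) of each tested member of 18 gene lists (rows), with a bar at the median of the list. Interferon response genes (median -0.83), AP-1 subunits (-0.50) and mitosis genes (-0.44) lie mostly to the left of 0, while mucosal and simple epithelial keratins (0.33) and mitochondrially encoded transcripts (0.27) lie mostly to the right.

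The interferon response was the gene group with the largest median change among the pathway lists examined. Of 45 tested genes 39 were lower and 2 higher, 18 of them at least 2-fold lower, against 24.5% lower and 2.08% at least 2-fold lower among all tested genes. Among well expressed genes the share called lower was larger, 38.0% at an average log2 CPM of 4 to 7 and 43.1% above 7. The median log2 fold change was -0.83. IFIT1, an inhibitor of the translation of viral RNA, was at 136, 134 and 139 CPM in the control and 43, 40.2 and 37 CPM with the DUSP1 guide, 3.41-fold lower (log2 fold change -1.77 ± 0.06, adjusted p = 1.11e-13). IFI6, a mitochondrial protein induced by interferon, was at 531, 513 and 576 and 194, 205 and 211 CPM. Neither gene showed any overlap between the groups.

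Among the antiviral effectors on this list, ISG15, a ubiquitin-like modifier, fell from 224 to 84.6 CPM, RSAD2 (viperin) from 12.5 to 2.12 CPM and the dynamin-like GTPase MX2 from 37.7 to 11.8 CPM. IFIT3, a partner of IFIT1, was 3.3-fold and OAS1, which makes the second messenger 2-5A, 2.01-fold lower. Of the sensors of viral RNA, IFIH1 (MDA5) fell from 46.6 to 19.5 CPM and DDX58 (RIG-I) from 48.1 to 21.7 CPM. Of the transcription factors that carry the signal, STAT2 (log2 fold change -0.34), IRF9 (-0.36) and IRF7 (-0.69) were lower.

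IRF1 did not pass, with a log2 fold change of 0.04, nor did XAF1 (-0.13), IFITM3 (-0.10) or CGAS (-0.03). The 2 higher genes were TMEM173, which encodes STING, at 23 and 28.8 CPM, and the low IFITM2, at 2.12 and 3.74 CPM. Without DUSP1-guide replicate 1 there were 40 lower and 2 higher. Only 1 gene of the list, XAF1, lay in the 12 windows, and it was not called, so leaving these windows out could not change the counts. Of ligands and receptors, chosen after their values were seen, IFNE, a type I interferon of epithelia, fell from 10.5 to 6.41 CPM, while IFNGR1 had a log2 fold change of -0.41 and IFNAR1 of -0.20, a call lost under 4 alternatives. IFNB1 and IFNL1 did not pass the filter on low counts.

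CXCL10, a chemokine known as an interferon target that attracts T cells, was at 4.39, 4.31 and 3.14 CPM in the control and 0.426, 0.58 and 0.688 CPM with the DUSP1 guide, from 181, 228 and 151 and 20, 24 and 29 counts. CXCL11 fell from 1.7 to 0.215 CPM and CCL5 from 7.12 to 3.19 CPM. Of 9 tested chemokines for lymphocytes and monocytes these 3 were lower and 3 were higher, with a median log2 fold change of -0.04. CXCL14, by far the most abundant of them, rose from 1215 to 1703 CPM (log2 fold change 0.49 ± 0.04), CXCL16 from 16 to 21.5 CPM and CX3CL1 from 1.9 to 5.33 CPM. Of 6 tested chemokines of the list for neutrophils 2 were higher and none lower, with a median log2 fold change of 0.34, all at low levels. CCL20 rose from 3.67 to 4.88 CPM, a call lost without control replicate 1, and CXCL6 from 0.252 to 0.738 CPM. CXCL8, at 9.8 and 8.92 CPM, and CXCL1, at 12.8 and 11.3 CPM, did not pass. Without DUSP1-guide replicate 1 these last 2 were called lower.

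MHC class I genes, which present peptides to T cells, and the machinery that loads them were mostly lower. Of 21 tested genes 15 were lower and 1 higher, with a median log2 fold change of -0.29. HLA-B was at 1356, 1288 and 1440.1 CPM in the control and 776, 796 and 816 CPM with the DUSP1 guide (log2 fold change -0.77 ± 0.04, adjusted p = 3.28e-10), and B2M, the shared light chain, at 2514, 2513 and 2562 and 1638, 1451 and 1479 CPM (-0.73 ± 0.04). In both genes all libraries with the DUSP1 guide were below all controls. HLA-C (log2 fold change -0.51) and HLA-E (-0.30) were lower by less.

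TAP1, a subunit of the peptide transporter, fell from 117 to 74.6 CPM and the immunoproteasome gene PSMB9 from 53.6 to 38.8 CPM. TAPBP (tapasin, log2 fold change -0.11) and PDIA3 (0.07) did not pass, and CALR (calreticulin) was higher by only 0.14, a call lost without control replicate 1 or 2. HLA genes resemble each other and reads of 1 may have been counted for another, so their single values are uncertain. NLRC5, the transactivator of MHC class I genes, did not pass (log2 fold change -0.05).

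**Figure D5:**
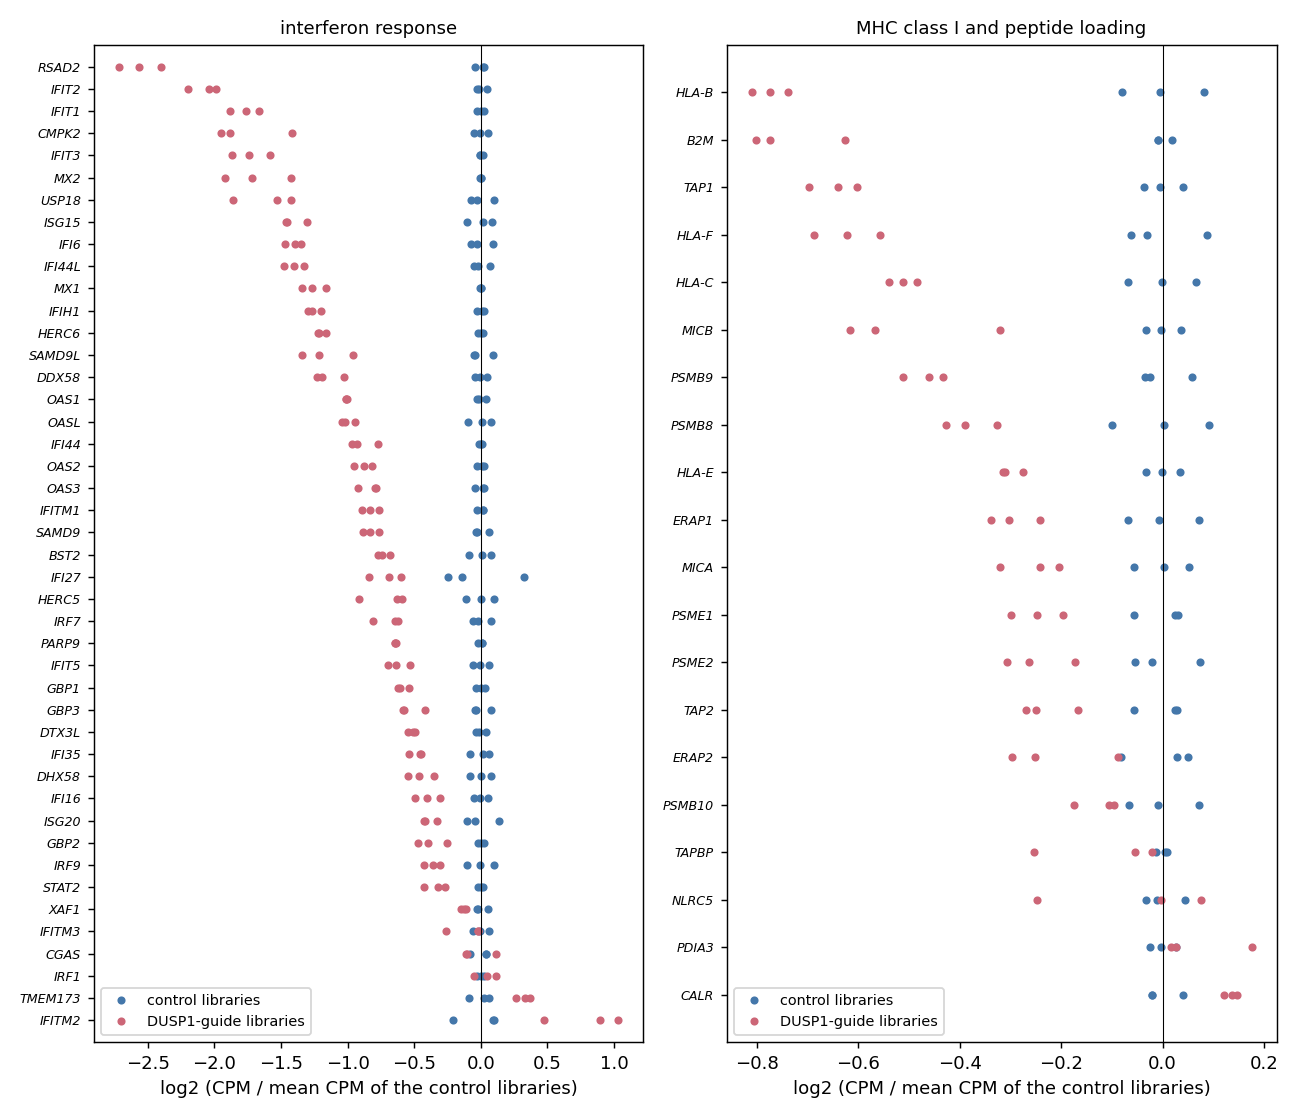
Levels of tested interferon response genes (left) and MHC class I genes (right) in each library, as log2 of the CPM over the mean CPM of the control libraries (x axis), with controls in blue and the DUSP1 guide in red. For most genes the red points lie left of all blue points, most so for RSAD2, at a log2 fold change of -2.56, on the left and for HLA-B, at -0.77, on the right.

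Genes of MHC class II were on no list, and 2 of them were among the 15 largest gains, at low levels. CD74, the invariant chain, was at 1.34, 1.29 and 0.832 CPM in the control and 16.8, 19.3 and 16.6 CPM with the DUSP1 guide, 15.3-fold higher (log2 fold change 3.93 ± 0.14, adjusted p = 3.88e-13). HLA-DPA1 had 4, 4 and 7 counts in the control libraries and 227, 156 and 180 with the DUSP1 guide, that is 4.29 CPM in the mean. HLA-DPB1, HLA-DRA and HLA-DMB did not pass the filter on low counts. CIITA, the class II transactivator, was at 0.936 and 1.29 CPM and did not pass (adjusted p = 0.21). PTPRC, which marks leukocytes, had 0 to 2 counts in each library.

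Of 15 tested immune checkpoint ligands 5 were lower and 3 higher. CD274, which encodes PD-L1, fell from 6.79 to 4.69 CPM (log2 fold change -0.53 ± 0.11) and CD276 (B7-H3) from 102 to 76 CPM. NT5E, the ectoenzyme CD73 that makes adenosine, rose from 16.8 to 32.3 CPM. CD47 and PVR did not pass, with log2 fold changes of -0.02 and -0.06.

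Inflammatory cytokines were mixed, with 10 of 21 tested genes lower, 4 higher and 7 not called and a median log2 fold change of -0.12. IL1A, an alarmin of keratinocytes, fell from 23.3 to 16.4 CPM, IL1RN, the receptor antagonist, from 106 to 86.7 CPM and IL6 from 2.71 to 1.29 CPM. CSF3 (G-CSF), the most increased of the list, had 1, 0 and 5 counts in the control libraries and 35, 17 and 37 with the DUSP1 guide. TNF was higher, at 9.28 against 13.6 CPM, and so was IL18, with a log2 fold change of 0.17 that lost its call without control replicate 1 or 2 and with no filter. Of 20 NF-kB subunits and feedback targets 4 were higher and 3 lower. NFKBIA, the inhibitor of NF-kB, fell from 296 to 237 CPM and TNFAIP3 (A20) from 227 to 179.9 CPM, while NFKBIZ rose from 121 to 159 CPM. The count of lower genes was 5 without DUSP1-guide replicate 2 and 6 with no filter.

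SOCS3, a feedback inhibitor of cytokine receptors chosen after its values were seen, was at 58.1, 57.6 and 63 CPM in the control and 26, 24.8 and 26 CPM with the DUSP1 guide, 2.33-fold lower without overlap. PTGS2 (COX-2), the inducible enzyme of prostaglandin synthesis, was at 14.6, 13.6 and 10.7 CPM in the control and 41.6, 41.9 and 36.5 CPM with the DUSP1 guide, 3.08-fold higher (log2 fold change 1.62 ± 0.09, adjusted p = 1.84e-10). The prostaglandin E2 receptors PTGER4 (2.84 to 1.16 CPM) and PTGER2 (1.62 to 0.669 CPM) were lower. Of 10 tested genes of this pathway 4 were higher and 4 lower. Complement genes were likewise split, 6 of 14 higher and 4 lower, with C3 higher at 17.8 against 27.4 CPM and C1S lower at 108 against 67.8 CPM.

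EGFR, the receptor for which A431 is known, was at 2628, 2698 and 2513 CPM in the control and 1623, 1667 and 1687 CPM with the DUSP1 guide, 1.58-fold lower (log2 fold change -0.66 ± 0.04, adjusted p = 5.29e-10). The groups did not overlap. The other receptors of the family did not follow it: ERBB2 rose from 127 to 158 CPM, ERBB4 from 4.27 to 13.6 CPM, and ERBB3 did not pass (log2 fold change 0.12). Of the ligands AREG (amphiregulin), HBEGF and TGFA were higher, with log2 fold changes of 0.56, 0.32 and 0.30, and EREG did not pass (0.08). NRG1, a ligand of ERBB3 and ERBB4, had a log2 fold change of -0.17 and lost its call without control replicate 1 or DUSP1-guide replicate 3. In all, 5 of 12 tested genes were higher and 2 lower.

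Basal keratinocyte genes were more often higher than lower, with 9 of 16 higher and 2 lower and a median log2 fold change of 0.12. KRT5 and KRT14 did not pass (log2 fold changes -0.04 and 0.06). The integrin ITGA3 rose from 854 to 1121 CPM, LAMB3, a chain of laminin 332, from 1466 to 1834 CPM and KRT15 from 1585 to 1932 CPM. Of the suprabasal keratins, KRT10 was at 9618, 9467 and 9838 CPM in the control and 6055, 4965 and 4904 CPM with the DUSP1 guide (log2 fold change -0.86 ± 0.06, adjusted p = 2.78e-09), and its partner KRT1 fell from 13375 to 10710.0 CPM.

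KRT2, a keratin of the upper epidermis, was at 90.0, 89.7 and 89.7 CPM in the control and 14.1, 13.8 and 12.7 CPM with the DUSP1 guide, 6.63-fold lower. KRT3, a keratin known from the cornea and chosen after its values were seen, was at 1860.1, 1794 and 1888 and 376, 397 and 394 CPM, 4.75-fold lower. No library of one group reached the other in these keratins. Reads of related keratins may have been counted for each other, so single values are uncertain.

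The rest of the differentiation programme was mostly higher. Of 34 tested differentiation genes 19 were higher and 8 lower, with a median log2 fold change of 0.17. The kallikreins, proteases that shed the horny layer, were among the larger gains: KLK5 was at 76.5, 75.6 and 82.8 CPM in the control and 229.9, 232 and 233 CPM with the DUSP1 guide, 2.96-fold higher (log2 fold change 1.56 ± 0.05, adjusted p = 8.98e-14), and KLK6 rose from 22.9 to 54.2 CPM. LOR (loricrin) rose from 19.6 to 40.6 CPM and GRHL3, a transcription factor of barrier formation, from 53.8 to 89.3 CPM. ALOX12B and ALOXE3, which also rose, lie in a high window of mouse order. FLG (filaggrin) and IVL (involucrin) did not pass, with log2 fold changes of -0.04 and -0.05.

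Activation keratins and stress-induced barrier genes were divided, with 9 of 24 higher and 8 lower. The small proline-rich proteins SPRR1A (228 to 516 CPM) and SPRR2A (88.5 to 231 CPM) and the elastase inhibitor PI3 (332 to 633 CPM) were higher. KRT16 fell from 5677 to 4227 CPM, while KRT17 and KRT6A did not pass (log2 fold changes 0.03 and -0.07). Among mucosal and simple epithelial keratins 7 of 11 were higher and 1 lower, with a median log2 fold change of 0.33. KRT4, a keratin of oral and oesophageal mucosa, was at 204, 199 and 199 CPM in the control and 779.7, 752 and 786 CPM with the DUSP1 guide, 3.85-fold higher (log2 fold change 1.94 ± 0.04, adjusted p = 6.19e-16), and its partner KRT13 was at 184, 176 and 187 and 390.2, 369.9 and 379 CPM. Both genes had groups far apart. KRT8, of simple epithelia, rose from 375 to 561 CPM.

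Junction genes were mostly lower. Of 24 tested genes of desmosomes, tight and gap junctions 17 were lower, 1 was higher and 6 did not pass, with a median log2 fold change of -0.35. DSP (desmoplakin), the anchor of keratin filaments, fell from 3110.0 to 2217 CPM, DSC2 (desmocollin) from 456 to 283 CPM and CLDN1 (claudin), a tight junction protein, from 1112 to 740.0 CPM. The connexins GJB2 and GJB6 had log2 fold changes of -0.61 and -0.63. In contrast GJA1, which encodes connexin 43, was at 26.2, 29.5 and 26.1 CPM in the control and 155, 142 and 146 CPM with the DUSP1 guide, 5.4-fold higher (log2 fold change 2.43 ± 0.06, adjusted p = 2.38e-15). JUP (plakoglobin) did not pass (0.10). No member of this list lay in the 12 windows.

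Genes linked to epithelial-mesenchymal transition moved in both directions, 9 of 21 lower and 6 higher. Their log2 fold changes ran from -2.84 to 3.58, with 4 called at least 2-fold lower and 1 at least 2-fold higher. FN1 (fibronectin) had the smallest p of all tested genes: it was at 432, 427 and 397 CPM in the control and 58.8, 59.8 and 56.8 CPM with the DUSP1 guide, 7.16-fold lower (log2 fold change -2.84 ± 0.05, adjusted p = 4.89e-17). TNC (tenascin C), another matrix glycoprotein, rose from 363 to 671 CPM. VIM (vimentin) and CDH1 (E-cadherin) were both higher, with log2 fold changes of 0.41 and 0.24, and EPCAM, an epithelial adhesion molecule, fell from 31.7 to 21.5 CPM. SNAI2 did not pass (log2 fold change -0.15).

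Matrix proteases were divided, with 11 of 21 tested proteases and inhibitors lower and 6 higher. MMP9, a gelatinase, was at 87.1, 80.2 and 88.6 CPM in the control and 14, 17.3 and 16.9 CPM with the DUSP1 guide (log2 fold change -2.41 ± 0.07), whereas MMP1, an interstitial collagenase, was at 86.8, 90.4 and 89.6 and 312, 289.7 and 292 CPM (1.74 ± 0.05). The 2 proteases thus differed in opposite directions, each without overlap between groups. MMP13 fell from 294 to 149.8 CPM, and the inhibitor TIMP3 from 172 to 95.4 CPM. PLAU (urokinase) rose from 538 to 715 CPM.

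Of 22 tested TGF-beta genes 12 were lower and 5 higher, with a median log2 fold change of -0.24. BMP2, a bone morphogenetic protein, fell from 34.1 to 7.14 CPM, and its targets ID1 (64.6 to 35.2 CPM) and ID3 (19.6 to 9.35 CPM) were lower. TGFBI and SMAD3 had log2 fold changes of -0.56 and -0.56. LTBP1, which stores latent TGF-beta in the matrix, rose from 9.21 to 30.5 CPM, and TGFB1 did not pass (0.05). IGFBP3, counted here among YAP targets and also a target of other pathways, was at 499, 493 and 499 CPM in the control and 124, 106 and 104 CPM with the DUSP1 guide, 4.46-fold lower. Of 14 tested YAP targets 8 were lower and 3 higher.

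Of 16 tested Notch genes 10 were lower and 4 higher, with a median log2 fold change of -0.27. The targets HES1 (156 to 89.6 CPM) and NRARP (99.9 to 54.2 CPM) and the receptor NOTCH3 (219 to 139 CPM) were lower, and the ligand JAG1 was higher (458 to 531 CPM). MAML1, also lower, lies in the lowest window of mouse order. Wnt genes showed 7 higher and 4 lower of 19, with a median log2 fold change of 0.24 and a range of -0.52 to 2.33. At least 2-fold changes were called in 3 of them, all higher. WNT10A and WNT4 were lower (log2 fold changes -0.52 and -0.37) and the antagonist DKK3 was higher (0.39).

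Genes of mitosis were lower almost throughout. Of 26 tested, 23 were lower and 1 higher, with a median log2 fold change of -0.44, and 23 were lower without DUSP1-guide replicate 1 too. MKI67, the marker of cycling cells, was at 170.2, 176 and 167 CPM in the control and 105, 108 and 114 CPM with the DUSP1 guide (log2 fold change -0.65 ± 0.05, adjusted p = 6.23e-09). CENPF, a kinetochore protein, fell from 113 to 74.4 CPM, TPX2, a spindle assembly factor, from 142 to 96.1 CPM, and KIF20A, a kinesin of cytokinesis, from 45.1 to 28.5 CPM. None of these exceeded 2-fold. AURKB was the 1 higher gene (log2 fold change 0.43) and lies in a high window of mouse order, and PLK1 and TTK did not pass (0.09 and -0.04). Whether fewer cells were in mitosis or each held less of these transcripts cannot be told apart in bulk RNA.

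Genes of DNA replication changed less, with 12 of 26 lower, 2 higher and a median log2 fold change of -0.07. RRM2, a subunit of ribonucleotide reductase, fell from 64.8 to 42.3 CPM and POLA1, a DNA polymerase, from 39.3 to 30.4 CPM. PCNA, the sliding clamp, and MCM3, a part of the replicative helicase, did not pass (log2 fold changes -0.08 and 0.02). The higher genes were MCM2 and MCM4, by 0.17 and 0.14, and neither was called without control replicate 3. Of 21 tested p53 targets and cell cycle inhibitors 9 were lower and 5 higher. CDKN1A (p21) fell from 569 to 472 CPM, and SFN (14-3-3 sigma) from 3906 to 3228 CPM. Of the higher members, the death receptor TNFRSF10B rose from 59.5 to 78.9 CPM, and CDKN2A, an inhibitor of cyclin-dependent kinases, had 3, 8 and 0 counts in the control libraries and 64, 46 and 65 with the DUSP1 guide. Without DUSP1-guide replicate 3 the lower genes of this list numbered 5. In the BCL2 family 8 of 15 were lower and 3 higher, among them the survival gene MCL1 (492 to 381 CPM) and the death effector BAX (43.2 to 51.4 CPM).

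Hypoxia and glycolysis genes were mostly lower, with 20 of 33 lower, 4 higher and a median log2 fold change of -0.19. HK2 (hexokinase) was at 311, 303 and 306 CPM in the control and 145, 139.8 and 143 CPM with the DUSP1 guide (log2 fold change -1.10 ± 0.04, adjusted p = 1.67e-12), and NDRG1, a gene induced by hypoxia, was at 3219.5, 3185 and 3231 and 2120.2, 2043 and 2074 CPM. Both showed a clear gap between the groups. EGLN3, an oxygen-sensing hydroxylase, fell from 119.6 to 58.2 CPM and VEGFA from 1462 to 1099 CPM. PFKFB4, which rose from 38.3 to 87.2 CPM, stands at the centre of the highest window of mouse order. It was not the largest gain: log2 fold changes of the list ran from -1.10 to 2.57. At least 2-fold changes were called in 2 genes higher and 2 lower. LDHA and GAPDH did not pass (log2 fold changes -0.04 and 0.09). GAPDH passed narrowly under size factors of the RLE kind and by DESeq2.

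Sterol genes were mostly lower by small amounts, 17 of 26 lower and 5 higher with a median log2 fold change of -0.16. MSMO1, a sterol oxidase of cholesterol synthesis, fell from 259 to 177 CPM, and SREBF1, a regulator of fatty acid synthesis, rose from 292 to 403 CPM. Of 20 genes of fatty acid synthesis and storage 9 were higher and 5 lower, with the desaturase FADS2 at 35 and 74.8 CPM. In the amino acid stress list 9 of 23 were higher and 4 lower. PSAT1, of serine synthesis, rose from 15.3 to 39.7 CPM and the regulator ATF4 fell from 339.8 to 259 CPM.

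Of 18 tested heat shock chaperones 10 were lower, 3 higher and 5 not called, with a median log2 fold change of -0.17. DNAJB1, a co-chaperone, fell from 385 to 243 CPM, HSPH1 from 176 to 111 CPM and HSPA1A, the inducible HSP70, from 772 to 519 CPM. HSPA1A and HSPA1B are near-identical copies, so their split is uncertain. Chaperones of the endoplasmic reticulum were divided, 8 of 18 higher and 7 lower (4 without control replicate 2 or DUSP1-guide replicate 3), and 4 of the 18 lay in the 12 windows, among them CANX, which was lower, and MANF and HYOU1, which were higher. NRF2 targets were lower in 13 of 27 and higher in 7. AKR1B10, an aldo-keto reductase, fell from 86.6 to 28.4 CPM, while the ferritin chain FTL rose from 528 to 760.1 CPM.

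Mitochondrially encoded transcripts, examined as a sign of RNA quality and cell stress, were higher in 9 of 13 and lower in 1. Their sum was 65794 to 66432 CPM in the control and 69816, 82681 and 72082 CPM in DUSP1-guide replicates 1 to 3. All libraries with the DUSP1 guide thus lay above the controls, replicate 2 most. MT-ND1, a subunit of complex I, rose from 2833 to 4426 CPM and MT-CO1, of complex IV, fell from 19988 to 15643 CPM. Their part in the other differences was not tested.

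A list of fibroblast genes was lower in 7 of 9 tested members and higher in 1. COL3A1, a fibrillar collagen, was at 4.1, 3.56 and 4.2 CPM in the control and 0.234, 0.386 and 0.664 CPM with the DUSP1 guide, and DCN (decorin) at 7.99, 8.93 and 8.03 and 1.02, 1.14 and 1.26 CPM. COL1A1 fell from 63.5 to 51.9 CPM. Summed over the list, the level was 285 to 289.5 CPM in the control and 184 to 214 CPM with the DUSP1 guide, while COL1A2 had at most 1 count in any library and POSTN 0 to 4. Of 3 tested skeletal muscle genes 2 were higher and 1 lower, with TNNI2, a troponin, at 11.7 and 34.1 CPM and ACTA1, the muscle actin, at 0 to 4 counts. The endothelial list summed to 4.1 to 4.58 CPM in the control and 1.64 to 2.28 CPM with the DUSP1 guide, with 1 of 3 tested genes higher (VWF, not called without control replicate 2 or 3 or DUSP1-guide replicate 3) and 1 lower (ERG). The list of T and NK cells, with 2 of 3 tested genes higher, summed to 1.21 to 1.44 and 2.47 to 3.46 CPM. Macrophage and monocyte genes summed to 13.7 to 15 and 13.6 to 15.7 CPM, with none of 3 called, and no mast cell gene was tested. The neutrophil list summed to 1174 to 1238 CPM in the control and 1193 to 1263.5 CPM with the DUSP1 guide, most of it S100A8 and S100A9, which keratinocytes also express. FCGR3B, an Fc receptor of neutrophils, fell from 10.2 to 2.92 CPM. Whether these transcripts came from the carcinoma cells or from others was not tested.

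The genes of this and the next paragraph were among the 15 largest changes in each direction and lay outside these lists. The ranking by size took only called genes with an average log2 CPM of at least 1 and groups without overlap. Others of the largest losses, such as FN1, KRT2 and COL3A1, were list members and are given above. LHX8, a homeobox transcription factor, had 161, 184 and 198 counts in the control libraries and 0, 0 and 3 with the DUSP1 guide. TCF4, a basic helix-loop-helix factor, was at 10.9, 12.1 and 9.61 CPM in the control and 0.767, 0.725 and 0.854 CPM with the DUSP1 guide, and CDK14, a cyclin-dependent kinase, at 8.88, 10.2 and 9.01 and 0.661, 0.700 and 0.522 CPM. In all 3 genes every library with the DUSP1 guide lay under 1 CPM. The lack of overlap with the controls was a condition of the ranking. VEGFC, the growth factor of lymphatic vessels, fell from 4.96 to 0.506 CPM, DIO2, which activates thyroid hormone, from 5.6 to 0.707 CPM, and the adhesion molecule CNTN1 (contactin) from 36.3 to 6.11 CPM.

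On the higher side, SESN3, a sestrin of the stress response, was at 4.15, 3.86 and 3.39 CPM in the control and 40.6, 39.9 and 39.4 CPM with the DUSP1 guide, 10.5-fold higher (log2 fold change 3.40 ± 0.08, adjusted p = 1.63e-15). AUTS2, a partner of Polycomb complexes, rose from 1.48 to 15.3 CPM, SCUBE2, a secreted protein that releases Hedgehog ligands, from 0.872 to 8.07 CPM, and MFAP5, a protein of microfibrils, from 0.339 to 8.31 CPM. FXYD6, a regulator of the sodium pump, had 9, 10 and 12 counts in the control libraries and 224, 240 and 234 with the DUSP1 guide. That the groups did not overlap in these genes follows from the rule that picked them. Non-coding genes were among the 15 largest gains as well, such as CASC19, at 2.75 and 22 CPM.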

How the data were processed

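RNA of the 6 A431 libraries was made into stranded mRNA libraries, per the labels' protocols. The values used are the counts per gene deposited by the authors, whole numbers without normalization. HISAT2, StringTie and DESeq are named in the submitters' processing notes, with the build hg38 for human reads and no versions. The sources used here do not give the counting rule, strand setting, annotation or handling of multiply matching reads, so values of overlapping genes and near-identical copies are uncertain. Features without a name (223, with 0.190 to 0.211% of the counts of a library) entered neither library sizes nor tests. Of the tested names 15 belonged to more than 1 feature and are not discussed.

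edgeR 4.0.16 in R 4.3.3 was run on the 6 libraries with the filterByExpr defaults, TMM factors (0.976 to 1.02) and the two-sided quasi-likelihood test. P-values were adjusted by Benjamini and Hochberg over all 18090 genes, and a gene is called at an adjusted p under 0.05. Levels are CPM of the scaled library size. A typical gene varied by 6.11% between libraries of a group (biological coefficient of variation). The script was tested on simulated data. Alternatives were RLE size factors, no filter, DESeq2 1.42.0, the replicate number as a block and each library left out. DUSP1-guide replicates 2 and 3 were also summed, since their column names differ only in the leading number. Whether these 2 replicates came from separate samples is not known.

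The 51 gene lists, the rule for named genes and the tests were chosen with earlier results of these data known. The rule named DUSP1 and the 15 largest changes in each direction. These were ranked among called genes with an average log2 CPM of at least 1 and groups without overlap. From each list the rule named up to 6 called members by p and up to 2 others by level. The text names 274 tested genes, of which 75 lie outside the rule and were picked after their values were seen, most of them list members or genes of the windows. The windows in mouse gene order were also chosen after seeing the data. Some tested list members are counted in their lists but not reported singly here. No guide or human sequence is printed.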

Additional observations from a re-analysis of the deposited data

How the results depend on the processing

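All 5 main results, namely the counts of genes called, called higher, called lower and changed at least 2-fold and the fold change of DUSP1, kept their direction and lay within 1.5 times the reported count under every alternative. Leaving out 1 library gave 7435 (without control replicate 2) to 9564 (without DUSP1-guide replicate 1) called genes, 3498 to 4585 higher, 3785 to 4979 lower and 1387 to 1825 changed at least 2-fold, with a log2 fold change of DUSP1 of -2.72 to -2.65. DESeq2 called 8190 genes, of which 8161 were shared with the 8617, RLE size factors 8611, no filter 8734 and the summed replicates 7996. With the replicate block 8521 genes were called, 8370 of them shared, and DUSP1 stayed at -2.68. The replicate numbers did not pair the samples: deviations of same-numbered libraries from their group means correlated at -0.075, -0.011 and 0.073. Of the 274 genes named in the text 231 were called, 218 of them under all 11 alternatives, none changed direction as a call, and 13 lost their call under at least 1 alternative: DUSP8 (10 alternatives), MCM4 (7), IFNAR1 (4), CALR, DUSP2, EGR2, IL18 and VWF (3 each), MAPK10, NRG1 and SPRY4 (2 each), and CCL20 and MCM2 (1 each). A further 13 genes passed under at least 1 alternative, most often without DUSP1-guide replicate 1. Of 960 comparisons of list counts 43 moved by over 1.5 times, 8 of these from a count of at least 5. Without the genes of the 12 windows, a choice made after seeing the data, 8292 genes were called. With 3 libraries per group, from tumours whose number is not given, the spread between animals is not known.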

Other observations

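Some genes not described so far add further values. FKBP5, 1 of the 15 largest losses, a co-chaperone of the glucocorticoid receptor and one of its best known targets, was at 11, 10.4 and 11.6 CPM in the control and 1.81, 1.96 and 1.83 CPM with the DUSP1 guide, 5.9-fold lower (log2 fold change -2.56 ± 0.12, adjusted p = 1.00e-11). The other genes named here were picked after their values were seen. Among those known to respond to glucocorticoids, TSC22D3 (GILZ) fell from 47.9 to 32.3 CPM and the kinase SGK1 from 125 to 86.3 CPM, PER1 did not pass (log2 fold change 0.18), and the metallothionein MT2A rose from 226 to 293 CPM. NR3C1, the receptor itself, fell from 101 to 72.1 CPM and lies in the fourth lowest window of mouse order.

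The type IV collagens COL4A1 and COL4A2 fell from 513 to 354 and from 695 to 534 CPM. Among the insulin-like growth factor binding proteins, IGFBP6 rose from 168 to 278 CPM, IGFBP4 from 85.5 to 127 CPM and IGFBP2 from 33 to 51.1 CPM, and IGFBP7 had a log2 fold change of -0.36. KRT76, a keratin of the palate, was at 1.77, 2.29 and 2.33 CPM in the control and 0.234, 0.266 and 0.213 CPM with the DUSP1 guide, so that it was low in both groups and lower with the guide. DDX60, a helicase induced by interferon and not on the interferon list, was at 104 and 49.3 CPM.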
